A study of Arabidopsis thaliana with 12 samples.

Results

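The 8 genes described here build 2 families of triterpenes in Arabidopsis thaliana and lie in 2 groups of neighbours on chromosome 5. The 5 genes of the thalianol cluster are the cyclase THAS1 (AT5G48010), the cytochrome P450 genes THAH (AT5G48000, also CYP708A2) and THAD (AT5G47990, also CYP705A5), and the genes THAA1 (AT5G47980) and THAA2 (AT5G47950). The 3 genes of the marneral cluster are the cyclase MRN1 (AT5G42600) and the cytochrome P450 genes CYP71A16 (AT5G42590) and CYP705A12 (AT5G42580). They were taken by locus identifier from tables of translated open reading frames (ORFs) in root and shoot, and are 8 of the 18273 genes that these tables list. The genes were chosen by their place in the clusters and with their higher root than shoot counts known from earlier results of these tables, so those counts are a description and were not tested.

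The cyclases fold oxidosqualene, a product of the mevalonate pathway that also gives the sterols, into a ring scaffold: thalianol for THAS1 and marneral for MRN1. Cytochrome P450 enzymes then oxidise the scaffold, THAH as a hydroxylase and THAD as a desaturase of thalianol products, and CYP71A16 as a marneral oxidase. Acyltransferases, as THAA1 and THAA2 encode, add acyl groups. Both pathways are known from roots, and the thalianol products are known to act on the bacteria that live there.

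The plants were Col seedlings of 4 days after imbibition, grown in shaken liquid medium with sucrose under long days, and both tissues were taken 3 hours after lights on. By the labels there were 3 ribosome profiling and 3 RNA-seq samples of root and as many of shoot, 12 samples in 4 groups. The groups differed in tissue and in assay, with no treatment or mutant. Ribosome profiling sequences the RNA fragments that ribosomes protect. The tables held 1 set of called ORFs per tissue with 1 whole-number count for each ORF, not scaled by length or depth, so nothing below has a replicate check or a p-value and every interval covers counting error only. The RNA-seq samples were not analysed here, so a ribosome count reflects both the amount of transcript and its translation. In whole organs fewer cells of a type and less RNA per cell cannot be told apart.

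The largest ORF count of each gene summed to 113381941 in root and 95481490 in shoot, and shares and ratios refer to these sums, which cover called ORFs and are not library depths. The tissue labels were checked on a few marker genes. RHD6 and PLT1 were listed in root only, SPCH and TMM in shoot only. Over the largest ORF of each gene, CASP1 had 19925 root and 380 shoot counts, EXPA7 17572 and 304, and PIN2 (EIR1) 13324 and 169, which are log2 ratios of shoot over root of -5.46, -5.60 and -6.05. The photosynthesis markers LHCA1, PSAD1 and RBCS1A had log2 ratios of 4.77 to 5.43.

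All 8 genes had a translated ORF in root and 7 had one in shoot. Together they held 472978 root counts, 0.417% of the root sum, and 9193 shoot counts, 0.00963% of the shoot sum. The thalianol genes accounted for 350536 of the root counts and 7787 of the shoot counts, and the marneral genes for 122442 and 1406. Every ORF listed for them was an annotated coding ORF, 10 in root and 9 in shoot, and no upstream or downstream ORF was listed.

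THAS1 had 71421 counts in root (exact Poisson 95% interval 70898 to 71947) and 1663 in shoot (1584 to 1745) over an ORF of 766 codons and 14 exon blocks, on the plus strand of chromosome 5 from 19457002 to 19461537 (TAIR10). Per codon, the scale on which genes are compared here, the level was 93.2 counts in root and 2.17 in shoot. As a share of the tissue sums THAS1 was 36.2-fold higher in root (interval 34.4 to 38.0), a log2 ratio of shoot over root of -5.18. MRN1 had 51579 counts in root (51135 to 52026) and 502 in shoot (459.0 to 547.9) over 761 codons in 14 blocks, on the plus strand from 17053567 to 17057974. Its levels were 67.8 and 0.660 counts per codon, and it was 86.4-fold higher in root (79.2 to 94.7), a log2 ratio of -6.43. The cyclases thus had ORFs of nearly the same length and the same number of blocks, and the marneral cyclase had the lower level in each tissue.

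Among the P450 genes, THAD stood out by its level. It had 169165 root counts (168360 to 169973) and 3098 shoot counts (2990 to 3209) over 511 codons in 2 blocks, on the plus strand from 19434828 to 19436443. That was 331 counts per codon in root, 3.06 times the next of the 8 genes, and 6.06 in shoot. The share of THAD was 46.0-fold higher in root (44.4 to 47.7), a log2 ratio of -5.52. THAH had 54200 root counts (53745 to 54658) and 1294 shoot counts (1224 to 1366) over 501 codons in 9 blocks, on the minus strand from 19444316 to 19447738, and was 35.3-fold higher in root (33.4 to 37.3).

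CYP71A16 had 49241 root counts (48807 to 49678) and 904 shoot counts (846.0 to 964.9) over 497 codons in 4 blocks, on the minus strand from 17031220 to 17033639. It was 45.8-fold higher in root (42.9 to 49.0), so its log2 ratio of -5.52 was that of THAD to the second decimal. CYP705A12, a P450 of the same subfamily as THAD, had 21622 root counts (21335 to 21912) over 499 codons in 2 blocks, on the minus strand from 17023649 to 17025228. No ORF of CYP705A12 was listed in shoot, where the lowest count of any listed ORF was 6. It was therefore given no ratio, and the gene was not shown to be untranslated there. Of 1046 genes with a root count at least as large, 8 (0.765%) had no ORF listed in shoot, CYP705A12 included. Over all 18273 genes, 11.4% were listed in root only.

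The acyltransferase genes stood at opposite ends of the cluster genes. THAA1 had 34331 root counts (33969 to 34696) but 207 shoot counts (179.8 to 237.2) over 443 codons in 1 block, on the plus strand from 19428971 to 19430300. Its share was 139-fold higher in root (122 to 161), a log2 ratio of -7.12. THAA2 had 21419 root counts (21133 to 21708) and 1525 shoot counts (1449 to 1604) over 426 codons in 1 block, on the minus strand from 19417221 to 19418497. It was 11.8-fold higher in root (11.2 to 12.5), a log2 ratio of -3.56. The interval of neither gene reached that of any other member.

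**Figure D1:**
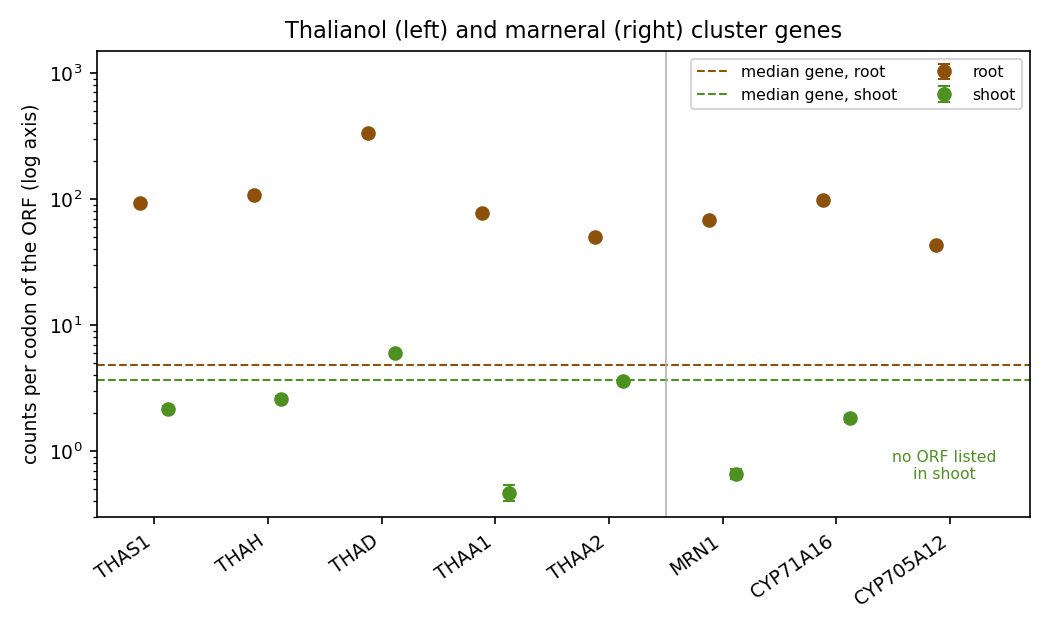
Counts per codon of the ORF with the largest count (log axis) for each thalianol gene (left of the line) and marneral gene (right) in root and shoot, with exact Poisson 95% intervals, most of them smaller than the symbols. All 8 root values, 43.3 to 331, lie above the dashed line of the median root gene at 4.79, while in shoot only THAD lies above the median shoot gene at 3.67.

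In root, the order of the levels per codon was THAD (331 counts per codon), THAH (108), CYP71A16 (99.1), THAS1 (93.2), THAA1 (77.5), MRN1 (67.8), THAA2 (50.3) and CYP705A12 (43.3). Below THAD, neighbours in this order differed by 1.06-fold to 1.35-fold. No counting interval overlapped the next, but the spread between samples is not known, so steps of this size cannot be called different. The levels were 9.04 to 69.1 times that of the median root gene, and placed the genes between the top 0.937% (THAD) and the top 9.48% (CYP705A12) of 16757 root genes. In shoot, the order was THAD (6.06), THAA2 (3.58), THAH (2.58), THAS1 (2.17), CYP71A16 (1.82), MRN1 (0.660) and THAA1 (0.467). There the range was from 0.127 times (THAA1) to 1.65 times (THAD) the median shoot gene.

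The members of the thalianol cluster kept some of their proportions between tissues and lost others. THAH was at 1.16 times the level of THAS1 per codon in root and at 1.19 times in shoot. THAD was at 3.55 and 2.79 times. THAA1 was at 0.831 times the cyclase in root and 0.215 times in shoot, and THAA2 at 0.539 and 1.65 times, so the order of THAA2 and THAS1 was turned between the tissues. In the marneral cluster, CYP71A16 was at 1.46 times the level of MRN1 in root and at 2.76 times in shoot, and CYP705A12 at 0.639 times in root. From the lowest to the highest, the thalianol genes spanned 6.58-fold in root and 13.0-fold in shoot.

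The 7 genes with an identical coding ORF in both tissues were all at least 4-fold higher in root, and 6 of them at least 16-fold, THAA2 being the exception. Ratios were computed for 11581 genes, those with such an ORF and a count of 100 or more in 1 of the tissues, and 8.29% of them were at least 4-fold and 1.79% at least 16-fold higher in root. The median log2 ratio was -5.52 for the 7 genes and -0.33 for all genes. By ratio, THAA1 was the 4th lowest of the 11581, MRN1 the 18th, THAD the 57th, CYP71A16 the 58th, THAS1 the 82nd, THAH the 89th and THAA2 the 273rd. The log2 ratios of THAD, CYP71A16, THAS1 and THAH, from -5.14 to -5.52, lay close to those of the root markers CASP1 and EXPA7. MRN1 and THAA1 lay below that of PIN2 as well, and THAA2 above all 3. The largest ORFs of CASP1 (206 codons in root, 140 in shoot) and PIN2 (647 and 581) differed in length between the tissues. Their ratios are therefore not fully like those of the members, which rest on identical ORFs. Whether root material in the shoot samples has a part in the shoot counts was not tested.

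**Figure D2:**
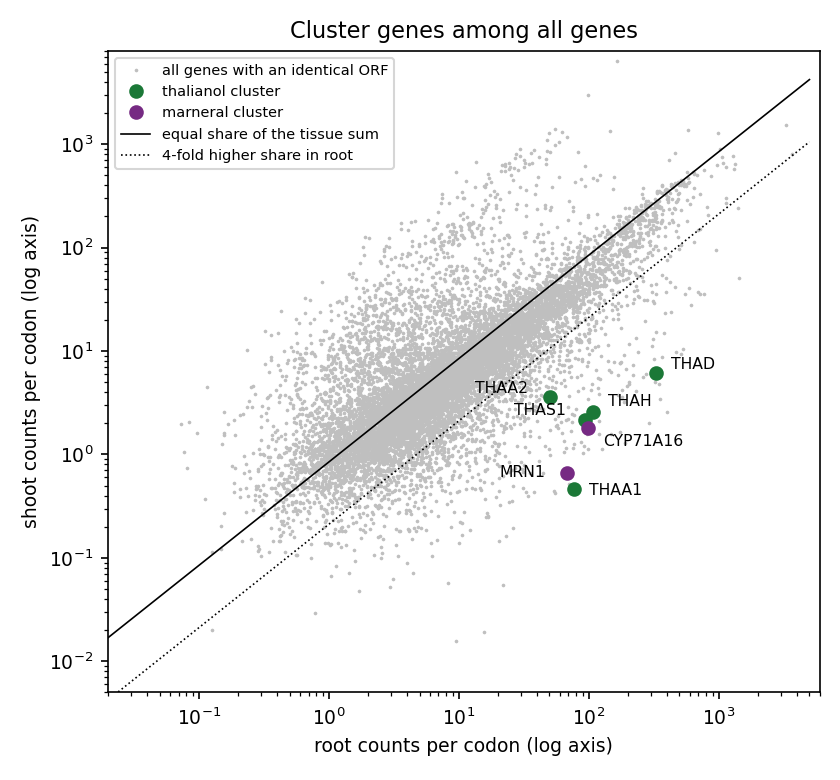
Shoot against root counts per codon (log axes) for the 11581 genes with an identical coding ORF in both tissues, with the 7 thalianol and marneral genes marked. The solid line marks equal shares of the tissue sums and the dotted line a 4-fold higher share in root, and all 7 genes lie below the dotted line.

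By a rule on likeness, the genes nearest to the median log2 ratio of the 7 were sought among 947 other genes with root counts from 21419 to 169165. Likeness was the absolute difference in log2 ratio over 2 tissues. The 5 nearest were AT4G26010 (159700 root and 2898 shoot counts, difference 0.02), RHS13 (59418 and 1062, 0.04), AT4G30170 (75768 and 1349, 0.04), XTH12 (34238 and 601, 0.06) and MOP10 (34185 and 591, 0.09). Of the 947, 175 (18.5%) were at least 4-fold higher in root, against 8.29% of all genes, and 26 were at or below the median ratio of the cluster genes. The 947 were selected on root counts alone, which favours genes higher in root, so these shares are not a like comparison.

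The tables listed more than 1 ORF for THAS1 and THAH, and the differences between nested ORFs locate some of the counts. The ORF of THAH transcript AT5G48000.1 starts 24 codons upstream of a shorter ORF with the same end and the same inner exons. The longer ORF had 54200 counts in root and the shorter one 54105, which leaves 95 (76.9 to 116.1) for the 24 codons. At the density of the shorter ORF, 113 counts per codon, 24 codons would hold 2722, so the extension was at 3.49% of that density (2.82 to 4.27). In shoot both ORFs had 1294 counts. The 24 codons thus had 0 counts, with an upper limit of 3.69, or 5.67% of the density of the shorter ORF there. In each tissue almost all counts of THAH therefore lay in the shorter ORF of 477 codons, although the longer one was listed too, and the log2 ratio of the shorter ORF was -5.14 as well.

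For THAS1, transcripts AT5G48010.1 (758 codons) and AT5G48010.2 (766 codons) differ toward the 3' end of the gene, where the second has 47 bases that the first lacks and lacks 23 that the first has. The second ORF had 970 more counts in root (71421 against 70451) and 31 more in shoot (1663 against 1632), 1.36% and 1.86% of its count. Since each ORF has bases of its own, these net differences do not give the share of either transcript. Both ORFs had a log2 ratio of -5.18.

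The thalianol ORFs spanned 44.3 kb from THAA2 to THAS1 and the marneral ORFs 34.3 kb from CYP705A12 to MRN1. The gaps between neighbouring thalianol ORFs were 10.5 kb (THAA2 to THAA1), 4.53 kb (THAA1 to THAD), 7.87 kb (THAD to THAH) and 9.26 kb (THAH to THAS1). Those of the marneral cluster were 5.99 kb (CYP705A12 to CYP71A16) and 19.9 kb (CYP71A16 to MRN1). Strand changed within each cluster, so the genes of a cluster are not read from 1 transcript.

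Between THAA2 and THAA1 lie RABA4C and AT5G47970. RABA4C, a Rab GTPase gene, was listed in root only, with 5769 counts (25.9 per codon). AT5G47970 had 1734 root and 1203 shoot counts, a log2 ratio of -0.28, close to the -0.33 of all genes. The sole other gene annotated within that cluster, the non-coding AT5G07035, had no ORF listed, and neither did AT5G00580, AT5G06325 and AT5G06335 between CYP71A16 and MRN1.

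On either side of the clusters the ratios lay nearer to 0 than those of the members. Beyond THAA2 came AT5G47940 (4994 root and 899 shoot counts, log2 ratio -2.23), AT5G47930 (45421 and 33451, -0.19) and AT5G47920, listed in root only with 592. Beyond THAS1 came AT5G48020 (5779 and 2827, -0.78), GFA2 (5582 and 5267, 0.16) and AT5G48040, in root only with 258. Next to CYP705A12 stood AT5G42570 (7051 and 1730, -1.78) and the pseudogenes AT5G42568 and AT5G42565, which had no ORF listed. Beyond MRN1 stood AT5G42610 with no ORF listed, AT5G42620 (2608 and 2323, 0.09) and ATS, with largest ORF counts of 1323 and 175 and a log2 ratio of -2.67, the lowest of the neighbours. AT5G47930 had the highest root level of the neighbours, 541 counts per codon, above that of THAD, with nearly equal shares in the tissues.

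Over the genes inside the clusters and the 10 on each side, 46 in all and 35 of them coding, 27 had an ORF in either tissue. Root and shoot shared 19 of these 27, 6 were in the root set alone and 2 in the shoot set alone. Over all 18273 genes, 2082 (11.4%) were in the root set alone and 1516 in the shoot set alone. The root-only share was thus higher among the neighbours than over all genes. Among the 6, AT5G42510, chosen after its value was seen, had 9149 root counts (50.3 per codon) and RABA4C 25.9 per codon, while the other 4 had at most 4.64. Of 17 with an identical ORF, 1 (AT5G47940) was at least 4-fold higher in root, near the 8.29% of all genes, and their median log2 ratio was -0.06, with a range of -2.23 to 1.66. None of the 17 reached the -3.56 of THAA2.

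**Figure D3:**
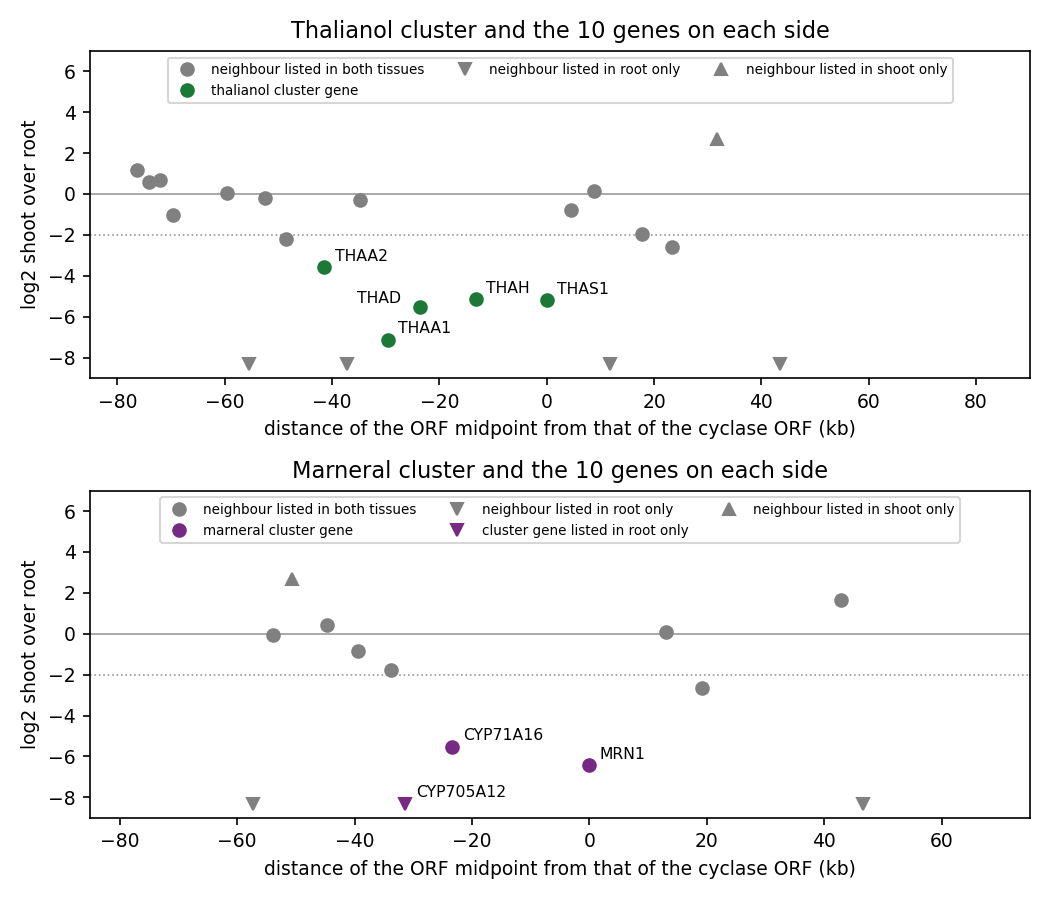
Log2 ratio of shoot over root for the largest ORF of each cluster gene and of its neighbours (10 on each side), by distance of the ORF midpoint from that of THAS1 (top) or MRN1 (bottom) in kb. The dotted line marks 4-fold, and triangles at fixed heights mark genes listed in 1 tissue only, which have no ratio. The cluster genes lie at -3.56 to -7.12 and the neighbours with a ratio at -2.67 to 1.66.

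Enzymes outside the clusters were compared next, over the largest ORF of each gene where no identical one was listed. Such ORFs can differ in length between the tissues, and root and shoot counts then cover unlike stretches. Background knowledge, not the annotation table, places 2 unlinked genes in the thalianol pathway, the short-chain dehydrogenase gene SDR4 (AT3G29250) and AT1G66800. SDR4 had 60979 root and 1505 shoot counts, a log2 ratio of -5.09, and AT1G66800 had 24876 and 243, a ratio of -6.43. Their root levels, 205 and 78.0 counts per codon, lay in the range of the cluster genes, and both ratios lay between those of THAA1 and THAA2. On this measure 9.89% of 14659 genes were at least 4-fold higher in root.

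Among the 12 other oxidosqualene cyclase genes, 6 had an ORF listed, 3 in both tissues and 3 in root only. The root-only genes were 50% of those listed, against 11.4% over all genes. CAS1, the cycloartenol synthase at the entry to sterol synthesis, had 20757 root and 14590 shoot counts and a log2 ratio of -0.26. Its root level, 27.3 counts per codon, was below those of THAS1 and MRN1, and its shoot level of 19.2 above both. PEN1 (2672 root counts), PEN3 (647) and LAS1, the lanosterol synthase (140), were listed in root only. LUP1, a lupeol synthase, had 776 and 1960 counts with a log2 ratio of 1.58, and LUP2 had 169 and 119. None of the 3 cyclases with a ratio was at least 4-fold higher in root, against 9.89% of all genes. With 3 genes this count cannot be told apart from that share, and the 3 root-only cyclases have no ratio. BAS, CAMS1, LUP5, BARS1, AT1G78500 and AT3G29255 had no ORF listed in either tissue.

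The other CYP705A genes, relatives of THAD and CYP705A12, had lower root levels. Of 22, 8 were listed in root only and 8 in both tissues. None was in shoot only, and 6 had no ORF listed. The root-only genes were 50% of those listed, against 11.4% over all genes. The 6 with the largest counts were CYP705A30 (13597, root only), CYP705A8 (9075 root and 425 shoot counts, log2 ratio -4.17), CYP705A19 (6696 and 4527, -0.32), CYP705A25 (6650, root only), CYP705A1 (5269 and 113, -5.29) and CYP705A13 (4860, root only). All 8 ratios were below 0, as were 63.1% of those of all genes, with a median of -3.34 against -0.34. Of the 8, 5 were at least 4-fold higher in root, against 9.89% of all genes. With identical ORFs it was 2 of 5, against 8.29%. CYP705A8, CYP705A22 and CYP705A33 had largest ORFs of unlike length, with 514, 515 and 418 codons in root. In shoot theirs had 455, 372 and 273 codons. The highest root level among the other CYP705A genes, 26.0 counts per codon for CYP705A30, was below that of CYP705A12. A wider set was formed after the values were seen, from 237 other genes with a P450 symbol. Of 58 with an identical ORF, 15 (25.9%) were at least 4-fold higher in root and 11 at least 4-fold higher in shoot, against 8.29% and 8.77% of all genes. Among 124 P450 genes listed in root, THAD ranked 1st per codon, THAH 5th, CYP71A16 6th and CYP705A12 13th.

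The genes of 2 other triterpene clusters, around PEN1 and BARS1 on chromosome 4 and around PEN3 on chromosome 5, numbered 12, with PEN1, PEN3 and some CYP705A genes counted above as well. Root and shoot shared 2 of these, 7 were in the root set alone and 3 had no ORF listed. The 7 were 77.8% of those listed, against 11.4% in root only over all genes. AT4G15390 had the largest counts, 43252 in root and 935 in shoot, a log2 ratio of -5.28 and a root level of 97.0 counts per codon, in the range of the thalianol and marneral genes. CYP705A1, its companion in both tissues, had a ratio of -5.29. BIA1 (2945 counts), CYP705A4 (2844), PEN1 and CYP716A2 (2254) were in root only. The cyclases listed from these clusters, PEN1 and PEN3, stood at 3.49 and 0.932 counts per codon in root, against 93.2 for THAS1 and 67.8 for MRN1.

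The genes listed for the supply of oxidosqualene had a median ratio below that of all genes but closer to 0 than that of the cluster genes. Of 19 genes from acetoacetyl-CoA thiolase to the squalene epoxidases, 17 were listed in both tissues and 2 in shoot only. Over all 18273 genes, 1516 were listed in shoot only, a share near that of this list. Of 15 with an identical ORF, 14 had a log2 ratio below 0, as did 63.7% of all genes, and 3 were at least 4-fold higher in root, against 8.29% of all genes. Their median was -1.37, against -0.33. HMGS, HMG-CoA synthase, had 45607 root and 8363 shoot counts (-2.20), HMG1, HMG-CoA reductase, 32093 and 9263 (-1.54), FPS1, farnesyl diphosphate synthase, 31359 and 8061 (-1.71), IPP2, isopentenyl diphosphate isomerase, 24962 and 8153 (-1.37), and MVD1, mevalonate diphosphate decarboxylase, 17624 and 2629.

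Squalene epoxidases make oxidosqualene itself. The list holds 6 genes placed in that family, and whether the product of each makes oxidosqualene was not tested here. For 3 of them the root and shoot shares of the gene lay within 2-fold of each other. For 1 these shares lay farther apart, and 2 genes were listed in shoot only. SQP2 (AT5G24140) had 34797 root and 1115 shoot counts, a log2 ratio of -4.72 and a root level of 67.4 counts per codon, close to that of MRN1. Its chromosomal neighbours SQP1 (AT5G24150, 4889 counts) and SQE6 (AT5G24160, 1112) were listed in shoot only (these and the genes that follow were named after their values were seen). SQE1 (XF1), with 10824 and 4638 counts, had a ratio of -0.97, SQE2, with 295 and 137, of -0.86 and SQE3, with 3210 and 3739, of 0.47. How the authors' counting treated reads shared by near copies is not given in the sources used here, so the split among neighbouring copies is uncertain.

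**Figure D4:**
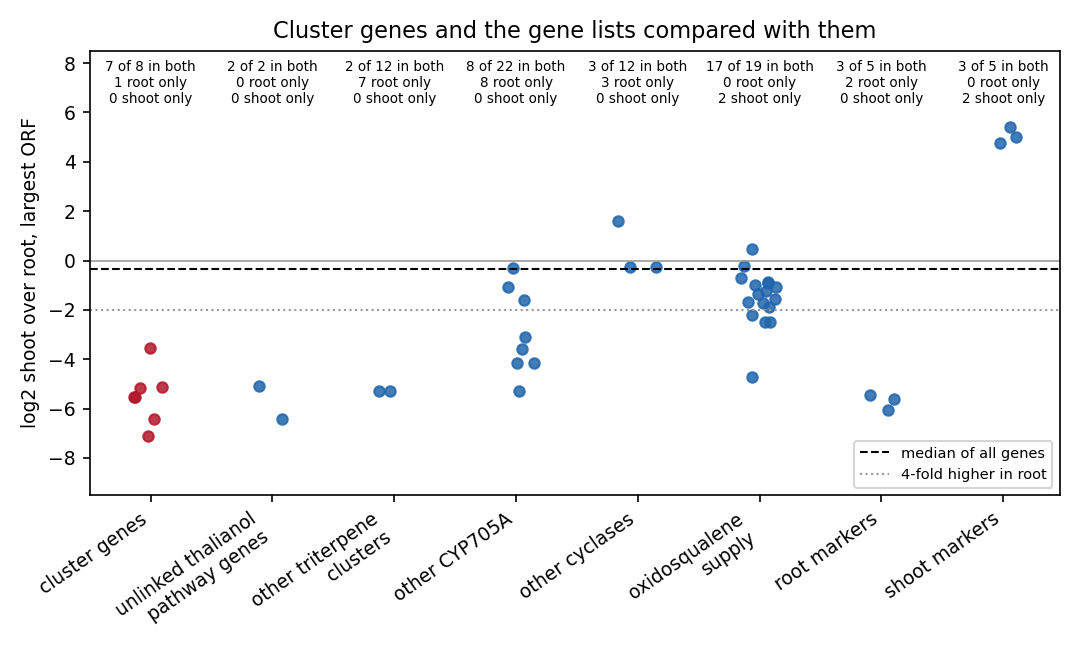
Log2 ratio of shoot over root for the largest ORF of each gene listed in both tissues, for the cluster genes (red) and the lists compared with them (blue), with the number of genes listed in both or in 1 tissue above. The dashed line is the median of all genes at -0.34 and the dotted line marks 4-fold. The cluster genes, the unlinked thalianol genes, the 2 other triterpene cluster genes with a ratio and the root markers lie below -3. The other CYP705A genes range from -5.29 to -0.32, and the oxidosqualene supply genes lie mostly between the dotted line and 0.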

How the data were processed

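Ribosome profiling of root and shoot, 3 samples each by the labels, was analysed from the deposited ORF tables of the authors, which hold whole-number counts. Per the submitters' processing notes, Bowtie2 and STAR 2.5.1b were used, in roles not stated, with genome build TAIR10. The ORF caller, and how samples were combined, is not given in the sources used here. Exon blocks with the same name were joined into an ORF. Starts are 1-based and outer ends uncertain by 1 base. Symbols and gene order came from a RefSeq table (TAIR10.1), which matched all 85 list entries. The ratio is the log2 of a gene's share of the shoot sum over its share of the root sum (0.5 added to each count), for the longest coding ORF identical in both tissues and at least 100 counts in the higher one. Intervals are exact Poisson, and exact binomial for ratios. PCR copies were not told apart, so these cover counting error only. The members and lists were chosen with earlier results of these data known. The text names all members, the 6 largest counts per list, the genes inside the clusters and the 3 nearest on each side, and the 5 genes most like the members. Promoter and protein sequences were not used here. The ratio step was tested on simulated counts. Software was Python 3.11.15 with pandas 2.3.3, numpy 2.4.6, matplotlib 3.10.9 and scipy 1.17.1.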

Additional observations from a re-analysis of the deposited data

How the results depend on the processing

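The count of 7 members at least 4-fold higher in root was the same with scaling on the median ratio, a pseudocount of 5, the largest ORF of each gene and no count filter. Scaling on the median ratio moved every log2 ratio by 0.33, and the members' median from -5.52 to -5.19, while a pseudocount of 5 left it at -5.51. With the largest ORF of each gene, 1450 genes of the whole table were at least 4-fold higher in root in place of 960, as were 3 neighbours in place of 1. So were 5 other CYP705A genes in place of 2, 2 unlinked thalianol genes in place of 1 and 2 genes of other triterpene clusters in place of 1. More genes then have a ratio, and the ORFs compared can differ in length between the tissues. With median scaling, 730 genes of the whole table were at least 4-fold higher in root in place of 960, and 0 neighbours in place of 1. Of the oxidosqualene supply genes, 2 were then at least 4-fold higher in root in place of 3. The numbers of members listed, 8 in root and 7 in shoot, were the same for coding ORFs alone and for counts of at least 100. No paired analysis was possible because the tables hold 1 count per ORF and tissue, and for the same reason no replicate could be left out. The lowest count listed in shoot was 6, and translation of CYP705A12 there below what the authors' caller accepts was not detectable.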

Other observations

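The members were also placed among runs of neighbours along the nuclear chromosomes, a description formed after the values were seen. Taking genes with an identical ORF in their order on the chromosome, there were 11542 windows of 4 successive genes. In 1 of them all 4 genes were at least 4-fold higher in root, and it was the window of THAA1, THAD, THAH and THAS1, whose highest log2 ratio was -5.14. The next window by this measure, from CML42 to AT4G20840 on chromosome 4, had a highest ratio of -1.97. When each gene was given its largest ORF there were 14572 windows, and 8 of them had all 4 genes past 4-fold. The thalianol window was again the lowest, followed by the one from AT1G51800 to AT1G51850 on chromosome 1, with a highest ratio of -4.18. Some of the 8 overlap, and genes without a ratio between successive genes were passed over. Genes listed in root only have no ratio, so runs of such genes could not be found. The members were chosen with their root counts known, so the place of their window is no test. The marneral cluster has 3 genes, too few to fill a window of 4.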
